A study of Mus musculus with 32 samples.

Results

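The genes described here are 10 mouse genes of the DNA damage checkpoint: Atm, Atr, Atrip, Topbp1, Clspn, Mdc1, H2ax, Chek1, Chek2 and Wee1. They were chosen by name, and every probe set of the Affymetrix array that carries the symbol of 1 of them alone was taken, which gave 20 probe sets. The array holds 45101 probe sets, of which 34958 name a single gene, for 18194 genes in all. Chek1 had 5 probe sets and Atr had 3. Atm, Clspn, Topbp1 and Wee1 had 2 each, and Atrip, Chek2, Mdc1 and H2ax had 1 each.

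The checkpoint joins DNA lesions to the cell cycle. Atm is the kinase that answers double-strand breaks, and Atr, held on single-stranded DNA by its partner Atrip and switched on by Topbp1, answers stalled replication forks. Phosphorylated H2ax marks the chromatin beside a break and binds the scaffold protein Mdc1. Claspin, the product of Clspn, brings Chek1 to Atr. The kinases Chek1, downstream of Atr, and Chek2, downstream of Atm, restrain the Cdc25 phosphatases, and Wee1 holds Cdk1 inactive. Early B-lineage cells divide rapidly and cut their own DNA to rearrange the immunoglobulin genes, so both kinds of lesion occur in them.

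RNA of 32 arrays from 3 experiments was measured, in a study of how reduced Ebf1, the transcription factor that specifies B cells, and reduced Pax5, which commits them, relate to damaged DNA and tumours. In the first, the pre-B-cell line 230238 was infected with the pMIG vector carrying Ebf1-Eng, in which Ebf1 is joined to the repressor domain of engrailed, or with empty pMIG, and 500000 GFP-sorted cells were used for each of 3 arrays per group. In the second, E14.5 fetal liver cells of Ebf1-/- C57BL/6J mice, grown on OP9 stroma with Kit ligand, FLT3L and interleukin-7, received pMIG-Ebf1-ER, a fusion of Ebf1 with the tamoxifen-binding part of the oestrogen receptor. They were taken 0, 6, 12 and 24 h after 0.1 uM 4-hydroxytamoxifen, with 2 arrays per time. All of these cells lack endogenous Ebf1, and the 0 h arrays are the only ones of this course without tamoxifen. In the third, enlarged lymph nodes of C57BL/6J Ebf1+/-Pax5+/- mice about 30 weeks old were thawed and live cells sorted from them, with 8 nodes on 2 arrays each, against 2 arrays of sorted pro-B cells from wild-type C57BL/6J mice. A node holds whatever live cells were in it, whereas the controls were sorted for 1 cell type, and the age of the wild-type mice is not given in the sources used here. The line is 1 line, and nothing states that replicates came from separate infections or mice, so p-values may measure technical spread.

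In the first 2 experiments the deposited values of every probe set have a median of 0. In the third, of lymph nodes, 10846 of the 45101 probe sets do, though its array medians also lie near 0. No level of a gene can therefore be read from the values, and no experiment can be set against another. All values below are log2 differences within an experiment, printed relative to the mean of its reference group (empty vector, 0 h or wild-type pro-B), and ± is the standard error of the limma fit. A probe set was called where the p-value, Benjamini-Hochberg adjusted over all 45101 probe sets, was under 0.05. The medians of the arrays lay between -0.014 and 0.049. As a check of the labels, 4 of 5 Ebf1 probe sets were called lower with Ebf1-Eng, at 6 h and 24 h of tamoxifen and in the nodes, where the fifth was called higher. Pax5 had 1 of 2 probe sets called lower in the nodes and none elsewhere. With Ebf1-Eng, 5 of 9 measured B-lineage markers were called lower, against 4.99% of all genes. Their mean lay between -1.99 and -1.11 with Ebf1-Eng and between -0.11 and 0.16 with empty vector.

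RefSeq promoters (GRCm38.p6) matched 8 of the 10 genes, with no entry for H2ax and Wee1. The 160 bases before the annotated start are shown for Chek1 and Clspn, which had the largest changes in the course, and for Chek2 and Mdc1. Only these last 2 had either of 2 E2F words, TTTCCCGC or TTTGGCGC on either strand, in the 250 bases before the start. Other spellings of the E2F element were not searched, such as GCGCGAAA, which the Topbp1 window holds. Capitals mark the searched E2F words and CCAAT boxes, read as GCGGGAAA and ATTGG where they lie on the other strand. Chek1 lies at chr9:36726659-36726818 on the minus strand, Clspn at chr4:126556820-126556979, Chek2 at chr5:110839823-110839982 and Mdc1 at chr17:35841338-35841497 on the plus strand.
Chek1 promoter: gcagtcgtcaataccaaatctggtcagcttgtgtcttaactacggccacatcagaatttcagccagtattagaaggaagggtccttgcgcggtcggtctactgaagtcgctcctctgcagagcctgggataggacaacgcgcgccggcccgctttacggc
Clspn promoter: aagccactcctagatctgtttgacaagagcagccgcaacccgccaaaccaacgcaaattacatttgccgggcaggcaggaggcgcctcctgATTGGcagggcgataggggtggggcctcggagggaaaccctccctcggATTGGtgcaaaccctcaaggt
Chek2 promoter: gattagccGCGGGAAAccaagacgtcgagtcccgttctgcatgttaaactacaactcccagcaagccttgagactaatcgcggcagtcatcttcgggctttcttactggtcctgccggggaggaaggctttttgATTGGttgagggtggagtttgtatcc
Mdc1 promoter: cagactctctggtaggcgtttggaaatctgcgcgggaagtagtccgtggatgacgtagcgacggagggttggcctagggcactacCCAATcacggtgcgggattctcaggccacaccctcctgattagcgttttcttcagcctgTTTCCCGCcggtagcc
Either searched E2F word was present in 2 of the 8 member promoters and in 1.3% of all 32851 promoters. CCAAT on either strand was present in 5 of 8, in Atm, Atrip, Chek2, Clspn and Mdc1, against 33.8% of all. The cell cycle element TTTGAA (16% of all) and the Ebf1 half-sites TCCC and GGGA parted by any 2 bases (0.779% of all) were in none of the 8 windows, which says only that these letters are not there. Clspn had CCAAT starting 69 and 21 bases before the start, and Chek2 had it at 186 and 26 bases. The E2F letters lay 152 bases before the start in Chek2 and 16 in Mdc1. These matches are descriptions of sequence and not binding sites.

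With Ebf1-Eng, 8 of the 20 probe sets, from 6 genes, were called lower than with empty vector and none was called higher. Over the whole array 3.72% of probe sets were called lower, 5.13% higher and 8.84% in either direction. All 20 changes were negative. Their median was -0.71, where that of all probe sets was -0.023. In 15 the groups did not overlap, with Ebf1-Eng below every empty-vector array, which held for 14% of all probe sets. Chek1, Clspn, H2ax, Topbp1, Atr and Chek2 gave the calls. Fewer cells of a type and less RNA per cell cannot be told apart in such bulk samples.

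**Figure D1:**
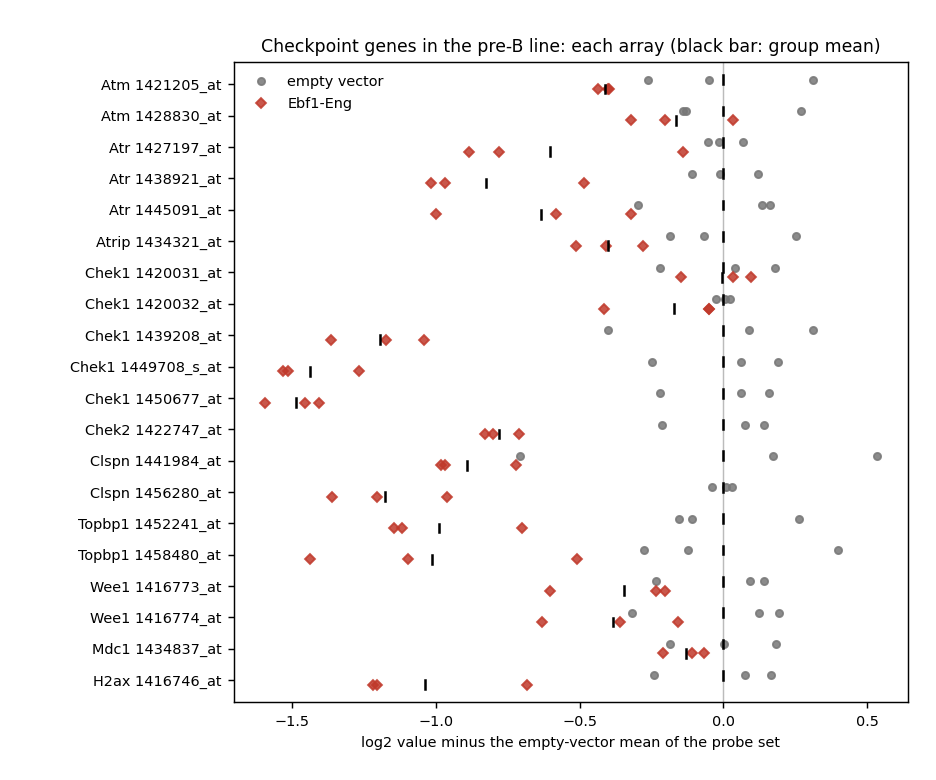
Log2 value of each of the 20 checkpoint probe sets on every array of the pre-B line, relative to the empty-vector mean, with grey circles for 3 empty-vector arrays, red diamonds for 3 Ebf1-Eng arrays and black bars for group means. The 3 strongest Chek1 probe sets lie between -1.60 and -1.04 with Ebf1-Eng, while Atm 1428830_at, Chek1 1420031_at, both of Wee1 and Mdc1 overlap between groups.

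Of the effector kinases, Chek1 and Chek2 were called and Wee1 was not. Chek1 1450677_at stood at -1.60, -1.46 and -1.41 with Ebf1-Eng against 0.06, 0.16 and -0.22 with empty vector. Both groups were tight and far apart, a change of -1.49 ± 0.12 (n = 3 per group), or 2.80-fold lower (limma adjusted p = 0.00117). Chek1 1449708_s_at changed by -1.44 ± 0.14 and Chek1 1439208_at by -1.19 ± 0.19, and both were called. The other Chek1 probe sets did not share this, with 1420031_at at -0.0055 ± 0.13 and 1420032_at at -0.17 ± 0.12. Over all 32 arrays the first 3 followed each other (Pearson r 0.964 to 0.99), whereas any pair holding 1420031_at or 1420032_at had r between 0.431 and 0.683. Chek2 1422747_at stood at -0.83, -0.80 and -0.71 against 0.08, 0.14 and -0.22. All Ebf1-Eng arrays were lower, by 0.78 ± 0.12 on the log2 scale, or 1.72-fold (limma adjusted p = 0.00843). Wee1, the Cdk1 inhibitor, was not called, at -0.38 ± 0.18 and -0.35 ± 0.15, and its groups overlapped.

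Clspn 1456280_at, for the adaptor that brings Chek1 to Atr, read -1.36, -1.21 and -0.96 with Ebf1-Eng and -0.04, 0.03 and 0.01 with empty vector. The control arrays lay almost on each other, and the change was -1.18 ± 0.12, or 2.26-fold lower (limma adjusted p = 0.00217). The second Clspn probe set, 1441984_at, changed by -0.89 ± 0.30 and was not called, since the empty-vector arrays spread from -0.71 to 0.54. H2ax 1416746_at read -1.21, -1.22 and -0.68 against -0.24, 0.07 and 0.17. The groups did not overlap, the third Ebf1-Eng array was the least low, and the change was -1.04 ± 0.18, or 2.05-fold lower (limma adjusted p = 0.0151). Mdc1, the scaffold that binds phosphorylated H2ax, was not called, at -0.13 ± 0.12.

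Among the sensors, Topbp1 1452241_at read -1.15, -1.12 and -0.70 with Ebf1-Eng against -0.15, -0.11 and 0.26, a change of -0.99 ± 0.17 (limma adjusted p = 0.0136). Topbp1 1458480_at had a like mean change, -1.01 ± 0.27, and was not called. The third Ebf1-Eng array was the least low in both. Atr 1438921_at read -1.02, -0.97 and -0.49 against -0.01, -0.11 and 0.12, a change of -0.82 ± 0.16 (limma adjusted p = 0.0212). The other Atr probe sets, 1445091_at at -0.63 ± 0.20 and 1427197_at at -0.60 ± 0.19, did not overlap between groups and were not called. Atrip, the Atr partner, stood at -0.40 ± 0.13, and Atm at -0.41 ± 0.15 and -0.16 ± 0.15, none called.

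The third array of each group stood apart from the other 2 on the second principal component of this experiment. Without replicate 3 of both groups 13 of 20 probe sets were called lower, and 4 were called without Ebf1-Eng replicate 1 or without Ebf1-Eng replicate 2. Atr 1438921_at, Topbp1 1452241_at and H2ax lost their calls in both of the latter fits (H2ax adjusted p = 0.0772 and 0.0736). Chek2 lost its call without Ebf1-Eng replicate 1 (adjusted p = 0.0523), Chek1 1439208_at without Ebf1-Eng replicate 2 (adjusted p = 0.0564) and H2ax without empty vector replicate 2 (adjusted p = 0.0687). Atr 1438921_at was also not called without empty vector replicate 1 (adjusted p = 0.0711) or 2 (0.0648). Chek1 1450677_at, Chek1 1449708_s_at and Clspn 1456280_at kept theirs in every alternative fit that tested them. With the replicate number as a block, 3 further probe sets were called lower: Topbp1 1458480_at (adjusted p = 0.00238), Clspn 1441984_at (0.0382) and Atr 1427197_at (0.0444).

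The wider checkpoint was read from 7 lists of other genes, of which 38 of 40 were measured. With Ebf1-Eng 8 of the 38 were called lower and none higher, with a median of -0.46 where that of all genes was -0.013, and 4.99% of all genes were called lower and 7.19% higher. Of 6 genes for RPA and ATR activation 2 were called, the RPA subunit Rpa2 at -1.18 ± 0.17 and the fork protection factor Tipin at -1.14 ± 0.14. Of 8 cell cycle effectors 5 were called, among them the mitotic kinase Plk1 at -0.79 ± 0.10, the origin-firing kinase Cdc7 at -0.77 ± 0.18 and the phosphatase Cdc25c at -0.65 ± 0.11. Brca1 was the 1 gene called of 6 for break-site chromatin, at -1.41 ± 0.22. None was called of 6 for the 9-1-1 clamp and its loader, 3 of the MRN break sensor, 5 PI3K-like kinases and assembly factors and 4 of the p53 arm. Proliferation genes moved with these results: 10 of 11 were called lower, and their mean lay between -1.33 and -1.05 with Ebf1-Eng and between -0.22 and 0.12 with empty vector. Myeloid markers had 2 of 10 called higher, with a mean from 0.66 to 0.74 against -0.05 to 0.06, and T and NK markers had 1 called higher each, of 9 and 6. Other lists had markers called lower: 5 of 9 B-lineage, 2 of 5 plasma cell and 1 of 5 erythroid markers. The erythroid median change was 0.090, and the erythroid mean overlapped between groups, at -0.24 to -0.12 against -0.24 to 0.13. The plasma cell mean ran from -0.44 to -0.23, against -0.23 to 0.15. The part of any of these in the checkpoint result was not tested.

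In the Ebf1-/- fetal liver cells the checkpoint genes went the other way once Ebf1-ER was activated. At 6 h, 13 of 20 probe sets from 7 genes were called higher than at 0 h, against 14.2% of all probe sets, and H2ax alone was called lower, against 14.7% (28.9% in either direction). At 24 h, 16 probe sets from 9 genes were called higher, against 16%, and none lower, against 16.2% (32.3% in either direction). The median change was 0.51 at 6 h and 0.87 at 24 h, where all probe sets had 0.0021 and 0.023. Arrays did not overlap, with tamoxifen higher, in 15 probe sets at 6 h (28.9% of all probe sets) and in 18 at 24 h (33.1%). Both comparisons share the 0 h arrays, which stood apart from all later arrays on the first principal component. Tamoxifen itself and the activation of Ebf1-ER cannot be told apart, as no treated cells without Ebf1-ER were analysed here.

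**Figure D2:**
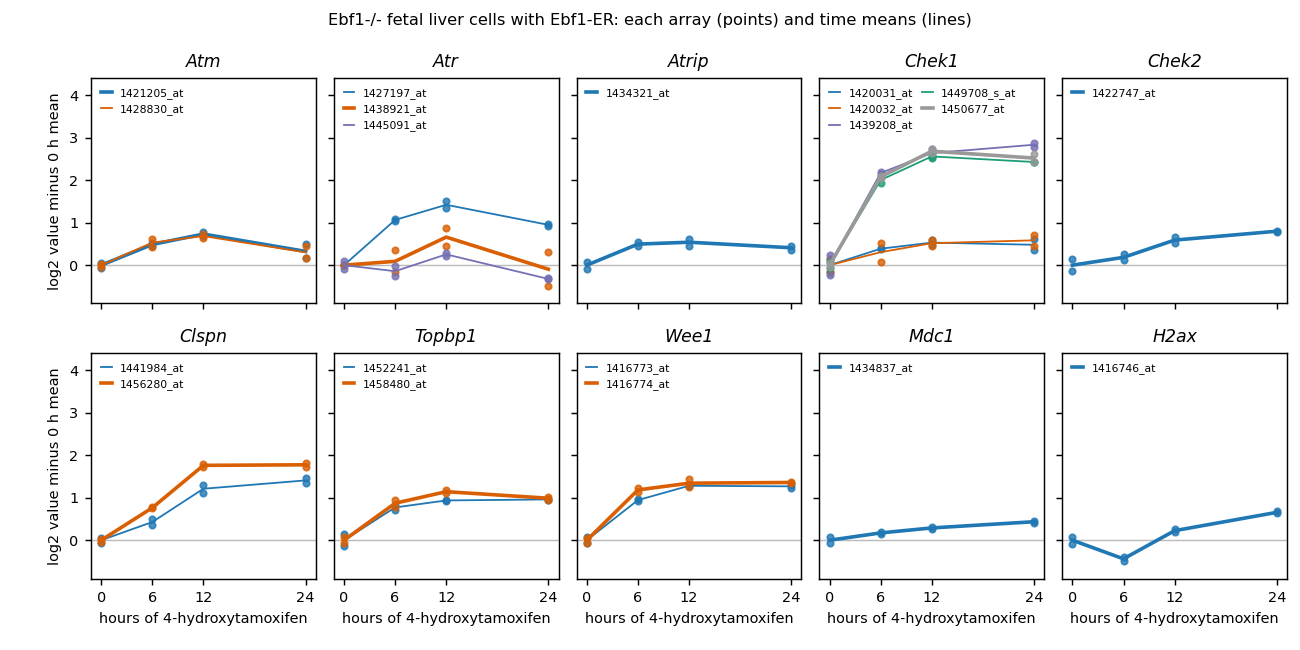
Log2 value relative to the 0 h mean against hours of 4-hydroxytamoxifen, with 1 panel per gene, 1 colour per probe set, a point for each of 2 arrays per time and lines through the means (thick for the probe set with the largest variance). Chek1 has 3 probe sets between 2.41 and 2.88 at 24 h, Atm is lower at 24 h than at 12 h by an amount that was not called, and H2ax dips to -0.48 and -0.40 at 6 h before it passes the 0 h mean.

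Chek1 had the largest change. Chek1 1450677_at read -0.04 and 0.04 at 0 h, 2.11 and 2.05 at 6 h, 2.63 and 2.73 at 12 h, and 2.62 and 2.41 at 24 h. Every array with tamoxifen was above both at 0 h, by 2.08 ± 0.10 at 6 h, or 4.22-fold (limma adjusted p = 1.3e-05), and by 2.52 ± 0.10 at 24 h, or 5.73-fold (limma adjusted p = 7.01e-06). The 24 h change was 2.83 ± 0.15 on 1439208_at and 2.43 ± 0.10 on 1449708_s_at, and 0.48 ± 0.13 and 0.58 ± 0.18 on 1420031_at and 1420032_at. All 5 Chek1 probe sets were called at 24 h, and 3 of 5 at 6 h. The calls of the weaker pair rested on single arrays: 1420031_at lost its call without 0 h replicate 1 (adjusted p = 0.128) or 24 h replicate 2 (0.155), and 1420032_at without 0 h replicate 2 (0.171), 24 h replicate 1 (0.183) or 24 h replicate 2 (0.0522). At 6 h 1420031_at, at 0.39 ± 0.13, gained a call without 0 h replicate 2 (0.0299) and with the replicate number as a block (0.0358).

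Wee1 1416774_at read 0.06 and -0.06 at 0 h, 1.14 and 1.23 at 6 h, 1.43 and 1.25 at 12 h, and 1.38 and 1.34 at 24 h. It was 1.18 ± 0.10 higher at 6 h (limma adjusted p = 0.000104), and the later arrays stayed close to that level. Wee1 1416773_at was 0.94 ± 0.09 higher at 6 h and 1.27 ± 0.09 at 24 h. Chek2 read 0.26 and 0.11 at 6 h, inside the 0 h span of -0.14 to 0.14 on 1 array, and 0.81 and 0.79 at 24 h. Its 24 h change of 0.80 ± 0.12 was called (limma adjusted p = 0.00155), and its 6 h change of 0.18 ± 0.12 was not. Whether Chek1 and Chek2 differ in timing was not tested.

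Clspn 1456280_at read -0.03 and 0.03 at 0 h, 0.75 and 0.77 at 6 h, 1.80 and 1.72 at 12 h, and 1.82 and 1.73 at 24 h. It was higher by 0.76 ± 0.09 at 6 h and by 1.77 ± 0.09 at 24 h, or 3.42-fold (limma adjusted p = 1.2e-05). Clspn 1441984_at changed by 0.43 ± 0.11 and 1.41 ± 0.11, also called, though the 6 h call was lost without 0 h replicate 1 (adjusted p = 0.0962) or 6 h replicate 2 (0.119). H2ax read -0.08 and 0.08 at 0 h, -0.48 and -0.40 at 6 h, 0.19 and 0.26 at 12 h, and 0.63 and 0.68 at 24 h. It was thus lower at 6 h (-0.44 ± 0.10, limma adjusted p = 0.00995) and higher at 24 h (0.65 ± 0.10, limma adjusted p = 0.00122), with no overlap between arrays of any pair of these times. Without Ebf1-ER 6 h replicate 1 the H2ax fall was not called (adjusted p = 0.0595). Mdc1 was called at 24 h, at 0.43 ± 0.09, and not at 6 h, at 0.17 ± 0.09. Without 24 h replicate 2 its call was lost (adjusted p = 0.0547).

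Topbp1 was called at both times on both probe sets, at 0.87 ± 0.10 and 0.77 ± 0.11 at 6 h and 0.99 ± 0.10 and 0.96 ± 0.11 at 24 h. Of the Atr probe sets 1 was called. Atr 1427197_at read 1.10 and 1.03 at 6 h, 1.50 and 1.34 at 12 h, and 0.93 and 0.97 at 24 h, all above 0 h, and was called at 6 h (1.06 ± 0.09) and 24 h (0.95 ± 0.09). Atr 1438921_at read 0.35 and -0.17 at 6 h and 0.30 and -0.49 at 24 h around a 0 h mean that both arrays matched, and Atr 1445091_at changed by -0.14 ± 0.11 and -0.32 ± 0.11. Neither was called at 6 h or 24 h. At 12 h 1438921_at read 0.44 and 0.88 and 1445091_at read 0.22 and 0.29, so all 3 Atr probe sets lay above both 0 h arrays at that time. Over the 32 arrays 1427197_at followed the other 2 with r = 0.737 and 0.713.

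Atm 1421205_at read 0.06 and -0.06 at 0 h, 0.51 and 0.46 at 6 h, 0.77 and 0.69 at 12 h, and 0.49 and 0.16 at 24 h. The 6 h changes of 0.49 ± 0.12 and, on 1428830_at, 0.53 ± 0.12 were called, and those at 24 h, 0.32 ± 0.12 and 0.30 ± 0.12, were not. The calls at 6 h were lost without some single arrays: for 1421205_at without Ebf1-ER 0 h replicate 2, 6 h replicate 1 or 6 h replicate 2 (adjusted p 0.0901, 0.0856 and 0.0642), and for 1428830_at without 0 h replicate 1 or 6 h replicate 1 (0.0623 and 0.0816). Atm 1421205_at was called at 24 h without 24 h replicate 2 (adjusted p = 0.0279). Atrip was called at both times, at 0.49 ± 0.11 and 0.41 ± 0.11. It lost the 6 h call without 6 h replicate 2 (adjusted p = 0.0558) and the 24 h call without 0 h replicate 1 (0.0935), 24 h replicate 1 (0.0532) or 24 h replicate 2 (0.11).

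Between tamoxifen-treated arrays the changes were smaller. From 6 to 12 h all 20 probe sets moved up and 5 were called, against 0.914% of all called higher and 1.38% in either direction. The 12 h arrays lay above both 6 h arrays in 18 probe sets, which held for 21.4% of all. The calls were both of Clspn (1.00 ± 0.09 and 0.78 ± 0.11), Chek1 1450677_at (0.60 ± 0.10) and 1449708_s_at (0.55 ± 0.10), and H2ax (0.66 ± 0.10, limma adjusted p = 0.0193). With 2 arrays a time these calls were fragile: without either 6 h array or either 12 h array, 1 of the 5 was called, Clspn 1456280_at. From 12 to 24 h no probe set was called higher, against 1.5% of all probe sets, and 2 of Atr were called lower, against 1.28% (2.78% in either direction): 1445091_at by -0.58 ± 0.11 and 1427197_at by -0.47 ± 0.09. Neither call held without any 1 of the 4 arrays. H2ax moved by 0.43 ± 0.10 in that interval, not called (adjusted p = 0.0626).

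**Figure D3:**
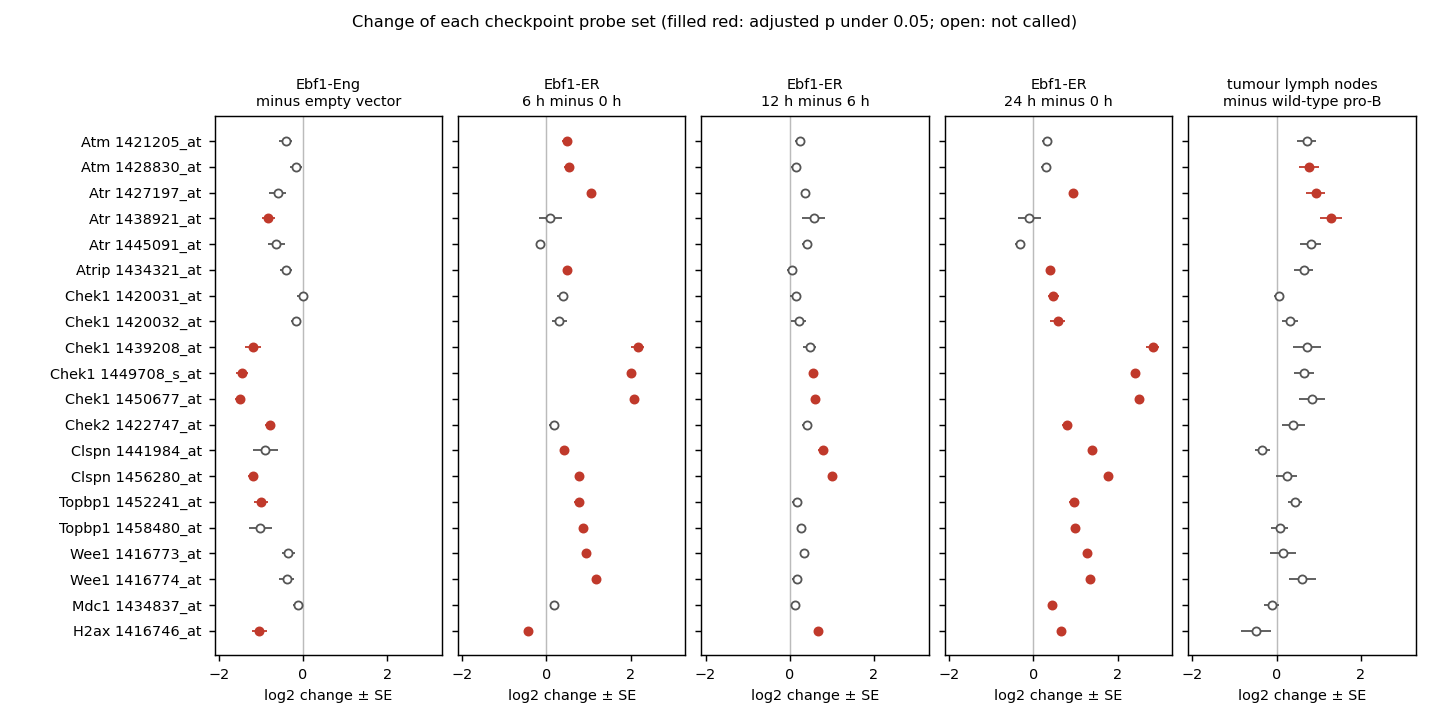
Log2 change with its standard error (horizontal bars) for each of the 20 checkpoint probe sets, with 1 panel per comparison, filled red where the adjusted p was under 0.05 and open where it was not. All 20 lie below 0 with Ebf1-Eng and above 0 from 6 to 12 h, and 3 are filled in the lymph nodes.

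The other checkpoint genes of the course had 22 of 38 called higher and 5 lower at 6 h, and 29 higher and 5 lower at 24 h, where the array-wide shares were 17.4% and 19.3% higher and 15.5% and 16.8% lower. All 6 genes for RPA and ATR activation were called higher at both times, led at 6 h by the ATR activator Etaa1 (1.28 ± 0.13), Tipin (1.25 ± 0.09) and Rpa2 (1.05 ± 0.09). All 3 MRN genes were also called higher at both, with the nuclease Mre11a at 1.20 ± 0.08 at 6 h and 1.55 ± 0.08 at 24 h. The 9-1-1 list had 3 of 6 higher at 6 h and 4 at 24 h, led by Rad1 at 1.15 ± 0.10 and 1.30 ± 0.10. Break-site chromatin had 4 of 6 higher at 6 h, led by Paxip1 (0.85 ± 0.16), and 4 higher and 1 lower at 24 h, with Brca1 at 1.65 ± 0.13 and Trp53bp1, a reader of break-site chromatin, at -1.16 ± 0.31. Of the 5 PI3K-like kinases and assembly factors 3 were higher at each time, with the assembly factor Telo2 at 1.29 ± 0.15 and 0.90 ± 0.15, and Smg1 was lower at 24 h (-0.72 ± 0.12).

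The cell cycle effectors split at 6 h, with 3 of 8 called higher, including Cdc7 (1.13 ± 0.09), and 2 lower, Cdc25c (-0.77 ± 0.11) and Plk1 (-0.74 ± 0.09). At 24 h all 8 were higher, with Cdc7 at 1.80 ± 0.09, Plk1 at 1.22 ± 0.09 and Cdc25c at 1.10 ± 0.11. The p53 arm had 3 of 4 called lower at each time, the p53 inhibitors Mdm4 and Mdm2 and the Cdk inhibitor Cdkn1a, at -0.65 ± 0.10, -0.61 ± 0.11 and -0.64 ± 0.09 at 24 h. The phosphatase Ppm1d, which reverses checkpoint signals, was higher then (0.61 ± 0.10). Proliferation genes followed an order like that of the effectors: 5 of 11 were higher and 3 lower at 6 h, among them the helicase subunit Mcm2 at 1.66 ± 0.09 and Mki67 at -1.32 ± 0.11, and all 11 were higher at 24 h. Their mean lay at 0.30 on both arrays at 6 h, between 1.13 and 1.19 at 12 h and between 1.38 and 1.45 at 24 h. Between 6 and 12 h 6 of the 38 were called higher (1.35% of all genes), led by Plk1 (1.24 ± 0.09) and Brca1 (1.03 ± 0.13), and none lower (0.715%). From 12 to 24 h 3 effectors were called higher (2.19% of all genes), led by Cdc25c (0.90 ± 0.11), and the end-joining kinase Prkdc lower (-0.68 ± 0.10, 1.45%). B-lineage markers had 2 of 9 called higher and 1 lower at 6 h, and 4 higher and 1 lower at 24 h. From 12 to 24 h 6 of the 9 were called higher, against 2.19% of all genes, and none lower. The B-lineage mean lay between -0.10 and 0.06 at 6 h, 0.05 and 0.12 at 12 h, and 0.82 and 0.93 at 24 h. Markers of other cells moved in the same course. At 6 h 4 of 9 T cell, 3 of 6 NK cell, 5 of 10 myeloid and 2 of 7 stromal genes were called lower, and 1 myeloid gene higher. At 24 h 3 T cell, 4 NK cell, 4 myeloid and 3 stromal genes were lower, and 1 myeloid gene higher. The mean of the T cell genes was -0.77 to -0.58 at 6 h and -0.66 on both arrays at 24 h, and that of NK genes was -0.66 to -0.62 and then -1.02 to -0.98. The myeloid mean was -0.41 to -0.31 and then -0.62 to -0.55, and the stromal mean -0.59 to -0.26 and then -1.09 to -0.90. Of 5 erythroid genes 2 were higher and 1 lower at 6 h (mean 0.25 to 0.54) and 1 was higher at 24 h (0.27 to 0.33). Of 5 plasma cell genes 1 was lower at 6 h (mean -0.11 to -0.094), and 2 were higher and 1 lower at 24 h (0.35 to 0.38). The part of proliferation, of B-lineage genes or of other cells in the checkpoint changes was not tested.

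In the tumour lymph nodes 3 of the 20 probe sets, from 2 genes, were called higher than in wild-type pro-B cells and none lower. Over the array 8.26% of probe sets were called higher, 7% lower and 15.3% in either direction, so this count was near the background. In 6 probe sets, of Atm, Atr and Topbp1, every node was above both wild-type samples, which held for 13.4% of all. The median change was 0.52, where that of all probe sets was 0.0050. The calls came from Atr (2 of 3 probe sets) and Atm (1 of 2).

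Atr 1438921_at lay between 0.69 and 1.82 over the 8 nodes, with a median of 1.43, against 0.05 and -0.05 in wild-type. All nodes were above both controls, by 1.29 ± 0.25 on average, or 2.45-fold (limma adjusted p = 0.0078). Atr 1427197_at lay between 0.32 and 1.33, median 1.00, a change of 0.92 ± 0.22 (limma adjusted p = 0.0186), and 1445091_at at 0.80 ± 0.25 was not called (adjusted p = 0.0588). Atm 1428830_at lay between 0.24 and 1.12, median 0.82, against 0.04 and -0.04, a change of 0.77 ± 0.23 (limma adjusted p = 0.0485). Its second probe set, 1421205_at, read alike, from 0.19 to 1.07, and fell just short at 0.71 ± 0.23 (adjusted p = 0.0668). In both Atm probe sets nodes 292 and 317 were the lowest and 381 the highest.

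The other members were not called. Chek1 1450677_at lay between -0.02 and 1.29, median 1.03, a change of 0.83 ± 0.31 (limma adjusted p = 0.102), with node 292 at the wild-type level. The other Chek1 probe sets changed less: 1439208_at by 0.72 ± 0.34, 1449708_s_at by 0.64 ± 0.24, 1420032_at by 0.32 ± 0.19 and 1420031_at by 0.04 ± 0.10. Wee1 1416774_at lay between -0.25 and 1.01, median 0.81, at 0.61 ± 0.32, and Wee1 1416773_at stood at 0.15 ± 0.30. Topbp1 gave 0.43 ± 0.16 on 1452241_at and 0.07 ± 0.19 on 1458480_at. Atrip stood at 0.64 ± 0.22 and Chek2 at 0.40 ± 0.28. H2ax was negative on average, at -0.50 ± 0.35, from -1.24 to 0.13 over the nodes. Clspn gave 0.24 ± 0.25 and -0.34 ± 0.17 on its 2 probe sets, and Mdc1 gave -0.12 ± 0.17.

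These counts rested on single samples. Without wild-type pro-B replicate 1 or replicate 2, which leaves 1 control, no member was called. Without lymph node 292 there were 10 calls, adding Atm 1421205_at, Atr 1445091_at, Atrip, Topbp1 1452241_at and 3 probe sets of Chek1 (1450677_at at 0.95, adjusted p = 0.0198). The Atm 1428830_at call was lost without node 277, 278, 279, 327, 381 or 383 (limma adjusted p 0.0644 to 0.0757). It was also lost with all samples kept and each array centred on its median (limma adjusted p = 0.0514). With the high T-marker nodes 279, 381 and 383 left out, Atr 1438921_at alone was called.

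Marker RNA of several cell types differed in this comparison, where 7.73% of all genes were called lower and 9.99% higher. Of 10 myeloid markers 8 were called lower in the nodes, with Mpo, a granule enzyme of granulocyte precursors, at -7.21 and S100a9 at -7.99. The mean of the myeloid list lay between -5.32 and -2.99 in the nodes and between -0.11 and 0.11 in wild-type samples, so myeloid marker RNA was higher in the samples labelled pro-B than in any node. Erythroid markers had 3 of 5 called lower (node means -2.28 to -1.65) and stromal markers 3 of 7 (-1.22 to -1.06, wild-type -0.39 to 0.39). None was called of 9 B-lineage markers (node means -1.04 to -0.05), 9 T cell markers (-0.80 to 3.19), 6 NK cell markers (-1.11 to 2.45) or 5 plasma cell markers (-0.07 to 1.06). With such relative values no marker can be read as absent. The part of these cells in the Atm and Atr differences was not tested.

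Differences between the nodes were clear for nearly every member. A moderated F test over the 16 node arrays, with the spread taken from the array pairs of each node, called 19 of the 20 probe sets and all 10 genes (54.1% of all probe sets and 58.9% of all genes were called). The median F was 36.6 for the members and 4.4 for all probe sets, and the median span between the lowest and highest node was 0.96 against 0.50. The 2 arrays of a node may be technical repeats, so this spread need not hold that between mice.

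**Figure D4:**
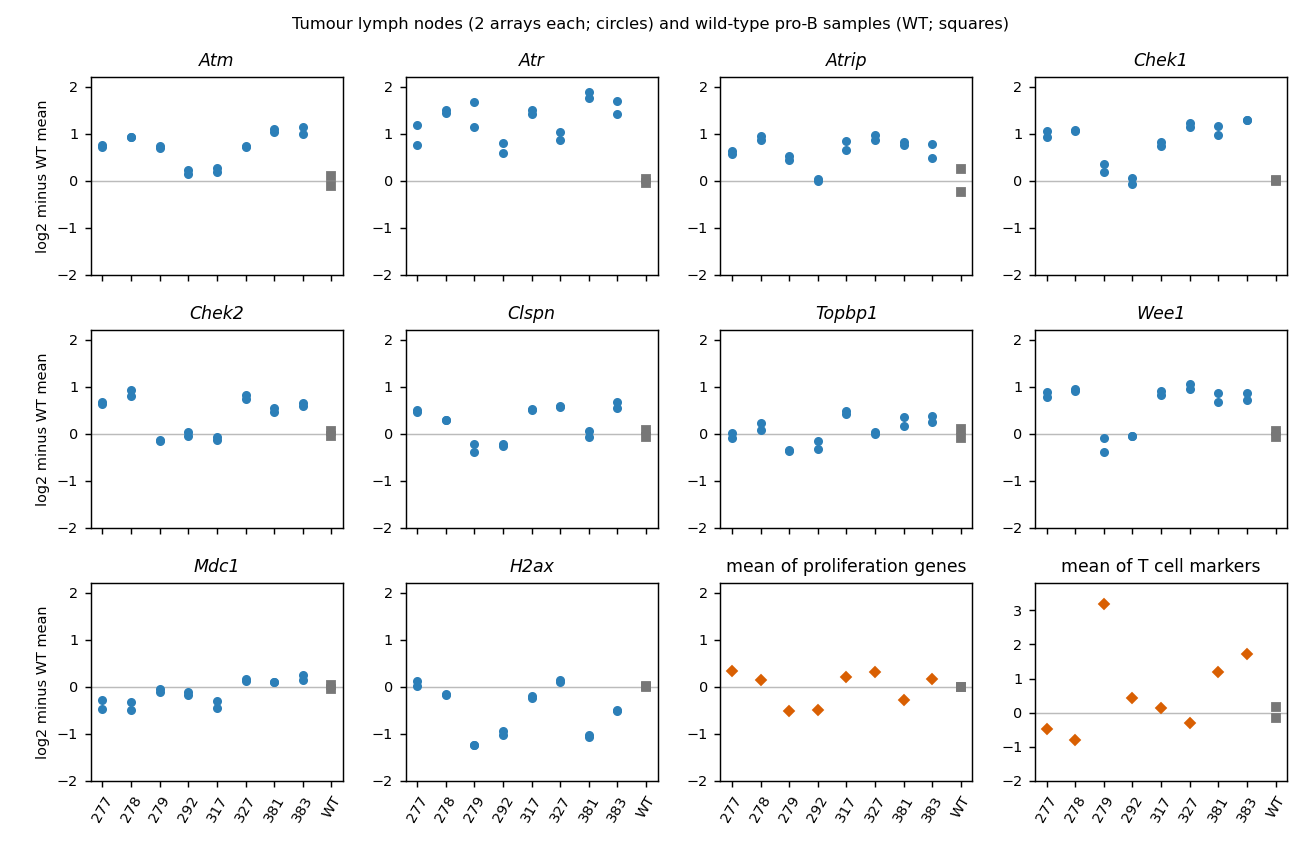
Log2 value relative to the wild-type pro-B mean for 1 probe set per gene on both arrays of each numbered lymph node (circles) and in 2 wild-type samples (squares, WT), with the means of 11 proliferation genes and 9 T cell markers per node (diamonds). Nodes 279 and 292 are low for Chek1, Wee1, Clspn and H2ax, node 381 is low for H2ax but high for Atr, and the T cell panel has a wider axis.

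H2ax had the largest F of the members, 145 (limma adjusted p = 1.69e-08). It read -1.24, -1.05 and -0.98 in nodes 279, 381 and 292, -0.50 in node 383, -0.22 and -0.16 in 317 and 278, and 0.07 and 0.13 in 277 and 327. The 2 arrays of a node differed by at most 0.09, and nodes 279, 381 and 292 were below the other 5. Chek1 1450677_at read -0.02 and 0.27 in nodes 292 and 279, 0.78 in 317 and between 1.00 and 1.29 in the other 5 (F = 53.6). Wee1 1416774_at had the same 2 low nodes, at -0.25 in 279 and -0.05 in 292, against 0.77 to 1.01 in the other 6 (F = 42.6). Clspn 1456280_at was low in these and in 381 (-0.30, -0.24 and -0.01), against 0.29 to 0.61 elsewhere (F = 49.5).

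Chek2 grouped the nodes in another way, with -0.14, -0.10 and -0.01 in 279, 317 and 292 against 0.51 to 0.87 in the other 5 (F = 71.7). Atm was lowest in 292 and 317 (0.19 and 0.24 on 1421205_at) and highest in 381 and 383 (1.07 and 1.06, F = 47.7). Atr 1438921_at had a small F of 8.9, since the 2 arrays of a node differed by up to 0.545. Mdc1 was high in 383, 327 and 381 (0.19, 0.15 and 0.10) and low in 278, 277 and 317 (-0.41, -0.38 and -0.37). Chek1 1420031_at was the 1 probe set not called (adjusted p = 0.114).

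The proliferation mean of a node moved with some of these values. It lay at -0.51, -0.49 and -0.28 in nodes 279, 292 and 381, and between 0.14 and 0.33 in the other 5, which left a gap of 0.42 between clusters of 3 and 5 nodes. The 3 nodes of the lower cluster were also the 3 lowest for H2ax and for Clspn 1456280_at, and 279 and 292 the 2 lowest for Chek1 1450677_at and Wee1. Node 381, with low proliferation genes, was the highest for Atm and Atr. A pooled correlation over nodes would rest on the gap between these clusters, and each holds fewer than 6 nodes, so none is given. T cell markers were highest in node 279 (3.19), followed by 383 (1.72), 381 (1.19) and 292 (0.42), and NK markers in 279 (2.45), and their part was not tested.

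Of the other checkpoint genes, 7 of 38 were called higher in the nodes and 2 lower, where the shares over all genes were 9.99% higher and 7.73% lower. The MRN complex had 2 of 3 called higher, Nbn (0.94 ± 0.26) and Mre11a (0.94 ± 0.23), and its mean ran from 0.21 in node 292 to 1.14 in node 327. Single calls were Prkdc (0.85 ± 0.22), Paxip1 (0.46 ± 0.13) and Cdc7 (0.97 ± 0.23), with Tipin (0.72 ± 0.19) and Rpa1 (0.53 ± 0.12) for RPA and ATR activation. The phosphatase Cdc25b (-2.06 ± 0.59) and Mdm2 (-0.60 ± 0.11) were lower. None of the 6 genes of the 9-1-1 list was called, and 1 of 11 proliferation genes was called higher, Mcm3 at 0.69 ± 0.20. Between nodes, by the F test, 33 of the 38 genes and all 11 proliferation genes differed, where 58.9% of all genes did, among them 3 of 6 in the 9-1-1 list, near that share, 3 of 3 of MRN and 6 of 6 for RPA and ATR activation.

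Across all 32 arrays, with each value taken from the mean of its experiment, the genes most like Chek1 1450677_at among 18193 others were Wdhd1 (r = 0.978), Exo1 (0.976), Tipin (0.974), Palb2 (0.974) and Hells (0.974). Wdhd1 encodes a replication fork protein, Exo1 a DNA end nuclease and Hells a chromatin remodeller. The genes most like Atm 1421205_at had lower values: Ankrd26 (0.879), Kcnab2 (0.874), Gstcd (0.867), Rpp14 (0.866) and Rccd1 (0.862). Within the members, Chek1 followed Clspn (r = 0.9), Wee1 (0.868) and Topbp1 (0.805) most closely, and H2ax followed Atm (-0.02) and Atr (-0.068) hardly at all. These r values describe arrays that share experiments and controls, with the 2 arrays of a node counted singly. Of the 8 members with a promoter entry, 5 lie on chromosome 9: Atm, Atr, Atrip, Chek1 and Topbp1. The median of all 866 genes there lay between -0.0063 and 0.065 over the nodes, close to that of the 13586 genes elsewhere (-0.016 to 0.077). A median over so many genes cannot show a change of part of the chromosome, and copy number was not tested.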

How the data were processed

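Total RNA of 32 arrays was labelled and hybridised, and the authors deposited 1 table of log2 values for 45101 probe sets. Per the submitters' processing notes RMA was used (version and log base are not given in the sources used here; log2 was taken). All 45101 probe sets have a median of 0 in the pre-B line and in the Ebf1-ER course, so those values were centred before deposit. In the lymph-node experiment 10846 do, and how its values were centred is not known. Scanner signals were not used here, so signal over background and scan batches are unknown. Gene names came from the platform annotation, updated through the gene identifier: 34958 probe sets have 1 symbol, 932 several and 9211 none, and a probe set shared with another gene was left out.

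limma 3.58.1 in R 4.3.3 (lmFit and eBayes, no trend) was fitted per experiment on all probe sets, with Benjamini-Hochberg adjustment and a threshold of 0.05. The 8 arrays of the course shared 1 fit, and the 2 arrays of a node were averaged, except in the F test between nodes. Every member probe set is named. Where 1 was needed per gene it was that with the largest variance summed over experiments, which favours large changes. Up to 3 called genes per pathway list and comparison were named, and the 5 genes most like Chek1 and Atm. Members, lists and markers were chosen with earlier results of these data known, and lists were described and not tested. Of the pathway lists, Rbbp8 and Trp53 had no probe set of their own.

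The labels number the replicates of the pre-B line and state no pairing. Deviations from the group means of same-numbered arrays correlated with r = 0.256, 0.387 and 0.481, so these arrays may be paired. The main fit took no account of the numbers, and the calls gained with them as a block are given in the Results. The fit was also run on simulated arrays with independent noise. That run held no pairs and no shared deviation of a replicate, so it does not bear on how fragile the calls are here. Alternatives were another centring, variance model, probe set choice, sample set or block, and leaving out each replicate. Leaving out 3 T-marker-rich nodes, or replicate 3 of both pre-B groups, was added after seeing the data. The number of arrays limits the precision.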

Additional observations from a re-analysis of the deposited data

How the results depend on the processing

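With Ebf1-Eng the count of members called lower ran from 4 to 10 probe sets (8 in the report) and from 2 to 6 genes (5 by 1 probe set per gene) as single replicates were left out, and was 13 probe sets without replicate 3 of both groups. The replicate block for that experiment moved no count by over 1.5 times, and its added calls stand in the report. In the course the replicate numbers share only a number. With them as a replicate block the 5 probe sets called from 6 to 12 h became 3 and the 2 called lower from 12 to 24 h became 0. In a joint fit of the 3 experiments the counts became 5 genes higher at 24 h (8 in the report's fit), 0 probe sets lower and 0 genes lower at 6 h (1 each), 0 probe sets and 0 genes higher from 6 to 12 h (5 and 3) and 0 lower from 12 to 24 h. Leaving out single arrays, which leaves a time with 1 array assumed to vary like the others, gave 1 probe set and 1 gene from 6 to 12 h, 0 lower from 12 to 24 h, and 0 to 1 lower at 6 h. Testing the more variable part of the array gave 1 probe set lower at 24 h (Atr 1445091_at). From 12 to 24 h the mean of a gene's probe sets gave 1 gene higher (H2ax) and 1 lower (Atr), and the most variable probe set per gene 1 lower. With that choice Atr 1438921_at at 24 h reversed, from -0.10 to 0.948, since Atr was then read from 1427197_at.

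In the lymph nodes the count of 3 probe sets (1 gene by 1 probe set per gene) became 8 and 4 in the joint fit, 9 and 4 with all arrays and the node as a random block, 2 genes with the most variable probe set, 1 probe set without nodes 279, 381 and 383, and 0 to 10 probe sets and 0 to 4 genes as single samples were left out. Differences between nodes kept 19 to 20 probe sets and 10 genes in all 13 and 15 alternatives. Counts at 6 h ran from 9 to 14 probe sets higher and at 24 h from 12 to 16. The planned correlation of members with proliferation genes over nodes was not run, by choice: the nodes fell into clusters of 3 and 5, so a pooled value would rest on the gap between them.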
